A study of Mus musculus with 24 samples.

Results

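The genes described here are 8 mouse genes of the 2-cell embryo programme, Zscan4c, Zscan4d, Zscan4f, Gm4340, Tcstv1, Tcstv3, Zfp352 and Tmem92, read by symbol from an RNA-seq table of 54242 genes in which all 8 are listed. They were followed in 24 libraries of CGR8 cells, a mouse embryonic stem cell (ESC) line, 3 in each of 8 groups. At day 0, ESCs were cultured with FBS and LIF, the cytokine that maintains self-renewal, and at day 4 they had been treated with FBS and 10 nM retinoic acid (RA). On each day the cells had received a control siRNA (si-CTL) or an siRNA against Rsl24d1 (si-Rsl24d1), a factor of large ribosomal subunit biogenesis, each without or with rescue. In rescued groups doxycycline induced an RSL24D1 transgene, whereas the groups without rescue carry an empty vector according to the labels and are the uninduced rescue line, a puromycin-selected pool, according to the methods of the study. The labels and methods also differ on the basal medium (DMEM or GMEM), on the collection time (48 h or 72 h), on the library kit (poly-A or total RNA) and on LIF during RA treatment, so these points are not settled. Doxycycline was given only to rescued cells, so that its effect and that of the transgene cannot be told apart.

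In the mouse, the embryonic genome is broadly activated at the 2-cell stage, when a set of genes including the Zscan4 cluster and the MERVL retroelements is transiently transcribed. A small and changing subset of cultured ESCs re-enters a similar state. Zscan4 proteins combine a SCAN domain with zinc fingers and are known for roles in telomere maintenance and genome stability, and RA is known to raise Zscan4 transiently in ESC cultures. The transcription factor Dux acts upstream of many of these genes, and chromatin regulators such as the histone methyltransferase SETDB1 and the CAF-1 complex restrain them. Libraries were made from bulk cultures, in which more cells in this state and more RNA per cell cannot be told apart.

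Zscan4c, Zscan4d and Zscan4f lie in a cluster of 9 Zscan4 genes and pseudogenes that spans 819.9 kb of chromosome 7 (10794242 to 11614112, GRCm38, gencode vM21). Zscan4c (11005745 to 11010547, plus strand), Zscan4d (11161374 to 11166159, minus strand) and Zscan4f (11397915 to 11402318, plus strand) each have transcripts of up to 4 exons. Gm4340 (chromosome 10, 104194042 to 104196522) is a gene with near-identical neighbours. Tcstv1 (chromosome 13, 119893388 to 119894785) and Tcstv3 (120316878 to 120318178) belong to a family of 2-cell stage variable genes. Zfp352 (chromosome 4, 90218820 to 90225702) encodes a zinc finger protein and Tmem92 (chromosome 11, 94777217 to 94782703) a transmembrane protein. All 8 are annotated as protein coding.

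RefSeq promoter windows (GRCm38.p6) were matched for 5 of the 8 genes. The 250 bases before the RefSeq start are shown because the 3 Zscan4 genes, which moved together, have nearly the same sequence there. The capitals mark the TATA box letters TATAAA and the letters AGGTCA, a core that nuclear receptors such as the RA receptors are known to bind, on either strand (TGACCT where they read on the opposite strand). The windows are chr7:11005495-11005744 (plus strand) for Zscan4c, chr7:11166149-11166398 (minus) for Zscan4d, chr7:11397665-11397914 (plus) for Zscan4f, chr10:104193792-104194041 (plus) for Gm4340 and chr4:90218570-90218819 (plus) for Zfp352.
Zscan4c: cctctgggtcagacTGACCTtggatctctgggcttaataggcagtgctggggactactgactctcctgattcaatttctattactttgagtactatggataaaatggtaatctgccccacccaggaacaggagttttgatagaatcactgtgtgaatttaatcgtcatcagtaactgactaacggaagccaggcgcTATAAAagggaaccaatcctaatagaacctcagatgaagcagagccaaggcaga
Zscan4d: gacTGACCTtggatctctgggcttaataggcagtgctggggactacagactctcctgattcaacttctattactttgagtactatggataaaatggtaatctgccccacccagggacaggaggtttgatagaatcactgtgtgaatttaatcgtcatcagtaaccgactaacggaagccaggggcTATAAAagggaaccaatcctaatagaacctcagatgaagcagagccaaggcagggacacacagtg
Zscan4f: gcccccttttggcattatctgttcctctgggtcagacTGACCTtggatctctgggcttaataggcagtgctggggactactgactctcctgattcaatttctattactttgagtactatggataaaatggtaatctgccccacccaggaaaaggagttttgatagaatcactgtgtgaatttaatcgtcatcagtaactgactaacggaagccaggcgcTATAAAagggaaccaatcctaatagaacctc
Gm4340: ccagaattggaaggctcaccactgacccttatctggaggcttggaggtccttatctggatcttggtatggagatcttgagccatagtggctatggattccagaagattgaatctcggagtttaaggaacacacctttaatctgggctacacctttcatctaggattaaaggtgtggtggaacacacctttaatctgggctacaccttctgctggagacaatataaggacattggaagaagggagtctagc
Zfp352: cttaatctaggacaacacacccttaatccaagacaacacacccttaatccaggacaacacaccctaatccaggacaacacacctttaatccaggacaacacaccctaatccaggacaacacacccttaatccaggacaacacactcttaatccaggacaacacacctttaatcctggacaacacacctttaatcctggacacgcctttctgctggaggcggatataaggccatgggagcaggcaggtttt

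Zscan4c and Zscan4f were identical at 226 of 227 aligned columns, Zscan4c and Zscan4d at 232 of 238, and Zscan4d and Zscan4f at 209 of 216. All 3 hold TATAAA, at 54 bases before the start in Zscan4c, 65 in Zscan4d and 31 in Zscan4f, because the RefSeq starts of the 3 genes fall at different points of the shared stretch. The window of Zscan4d begins at 11166149, inside the gencode gene, which reaches to 11166159. Its distance of 65 therefore holds for the RefSeq start and not for the gencode start. All 3 also hold AGGTCA on the opposite strand. Among 32851 promoter windows of this length, 12.4% hold TATAAA and 14.0% hold AGGTCA on either strand. Gm4340 and Zfp352 hold neither string of letters. TGCACAC, a string known for ZSCAN4 binding (3.67% of windows), and the 11-letter motif known for Dux (0.0304%) were searched on both strands and found in none of the 5. Such matches describe letters, not binding.

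The transcripts share sequence too, which limits how far reads can be assigned to one gene. Of all 31-base words in the annotated transcripts of Zscan4c, 91.5% also occur in another gene, against 65.0% for Zscan4d and 91.7% for Zscan4f. Zscan4c shares 81.6% of its words with Zscan4-ps2 and 70.1% with Zscan4f. For Gm4340 the share is 100%, since 6 other genes hold every one of its words. It is 51.0% for Tcstv3, 28.6% for Tcstv1, 21.5% for Zfp352 and 3.62% for Tmem92. Values of single Zscan4 genes and of Gm4340 are therefore uncertain, and sums over near-identical genes are given beside them.

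**Figure D1:**
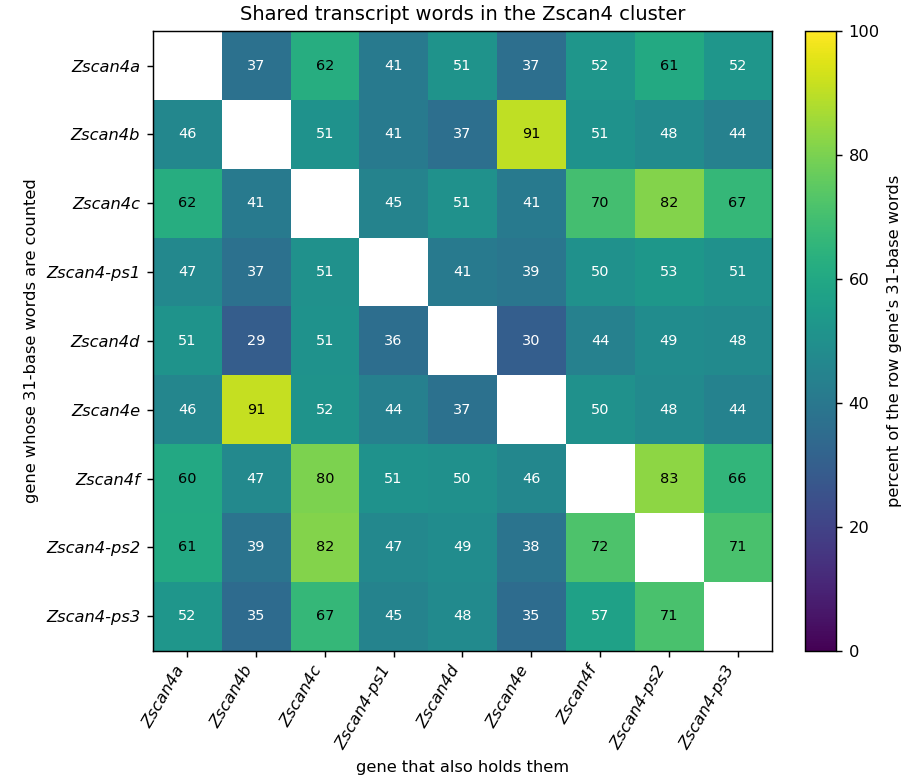
Percent of the 31-base words of each Zscan4 gene or pseudogene (rows) that also occur in another one (columns), from gencode vM21 transcripts. Zscan4c shares 81.6% of its words with Zscan4-ps2, and the row of Zscan4d lies between 29.4% and 51.3%.

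Values are log2(TPM + 1), the deposited scale, where TPM is a transcript abundance per length that sums to 1000000 in each library. Groups were compared with limma over 16447 genes with a mean of at least 0.5, and a gene is called at an adjusted p below 0.01 and a change above 1.8-fold (0.848 on the log2 scale). Of the 8 members, 7 passed this filter on the mean over all libraries. Tcstv1 did not and is described without a test. Zfp352 passed only through the groups where it is high, with a mean of 0.37 over the si-CTL libraries and 0.41 over those of day 0, so its tests and its place among the 7 are no support for a difference. It was called in none of the comparisons as fitted, so the counts of called members are those of the other 6. On this scale 1 TPM is added, so that changes of weakly expressed genes are smaller than the ratios of their TPM.

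The siRNA target itself, Rsl24d1 (chromosome 9, 73113426 to 73123333), fell from 7.22, 7.14 and 7.10 in the si-CTL libraries to 5.23, 5.28 and 5.07 in the si-Rsl24d1 libraries at day 0 without rescue. With rescue, Rsl24d1 was at 7.31, 7.24 and 7.21 in si-CTL cells and 6.70, 6.60 and 6.94 in si-Rsl24d1 cells, and the symbol does not separate endogenous from transgene RNA. At day 4 the groups overlapped without rescue, with 6.60, 6.67 and 6.61 in si-CTL and 6.50, 6.61 and 6.65 in si-Rsl24d1 cells (difference -0.04, 95% interval -0.19 to 0.11). With rescue at day 4, Rsl24d1 was at 6.99, 6.84 and 6.85 in si-CTL and 7.07, 7.05 and 7.00 in si-Rsl24d1 cells (difference 0.15, limma adjusted p = 0.19). The si-Rsl24d1 libraries thus had clearly less Rsl24d1 RNA at day 0 (-1.95, limma adjusted p = 3.2e-14) whereas at day 4 neither difference passed the test.

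In ESCs without rescue, si-Rsl24d1 raised the Zscan4 genes and Gm4340 to between 2.39 and 3.77 times the TPM of si-CTL cells. Of the 7 tested members, 4 were called higher and 0 lower, where 3.4% of all tested genes were called higher. The 3 si-Rsl24d1 libraries lay above the 3 si-CTL libraries for all 7, as they did for 23.8% of tested genes. The median change of the 7 was 1.04 on the log2 scale, and slightly higher without Zfp352, against -0.01 over all tested genes.

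Zscan4f, the most abundant Zscan4 transcript, was at 2.93, 3.26 and 3.10 in si-CTL and at 4.44, 4.28 and 4.20 in si-Rsl24d1 ESCs. The groups did not overlap, and the mean rose from 7.59 ± 0.97 to 18.8 ± 1.7 TPM (SD, n = 3), a log2 change of 1.21 (standard error 0.10, limma adjusted p = 1e-08). Zscan4c was at 2.01, 2.17 and 2.14 against 3.28, 3.20 and 2.99, a change of 1.04 (standard error 0.10, limma adjusted p = 6.3e-08). Zscan4d was at 1.41, 1.56 and 1.58 against 2.69, 2.55 and 2.64, a change of 1.11 (standard error 0.09, limma adjusted p = 6.1e-09). The 3 genes thus changed by similar amounts, with intervals of 0.99 to 1.42 for Zscan4f, 0.83 to 1.25 for Zscan4c and 0.92 to 1.30 for Zscan4d.

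The 6 other genes of the cluster went the same way. Zscan4a, Zscan4b, Zscan4e, Zscan4-ps2 and Zscan4-ps3 were called higher, by 0.86, 0.88, 1.15, 1.39 and 1.04 on the log2 scale, and Zscan4-ps1 changed by 0.84, just under the fold threshold. As fitted, 3.4% of all tested genes were called higher. With median of ratios scaling 4 of the 6 were called, and 538 genes in all were called higher. Summed over the 9 genes, TPM were 20.8, 22.5 and 21.7 in si-CTL and 57.7, 60.5 and 55.3 in si-Rsl24d1 ESCs, 2.66 times as much. This sum depends less than single genes on how reads were divided within the cluster. Zscan4f made up a mean of 35.5% of it over the 24 libraries (30.4% to 39.2%), Zscan4c 14.7%, Zscan4-ps2 14.6%, Zscan4e 11.4% and Zscan4d 9.15%.

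**Figure D2:**
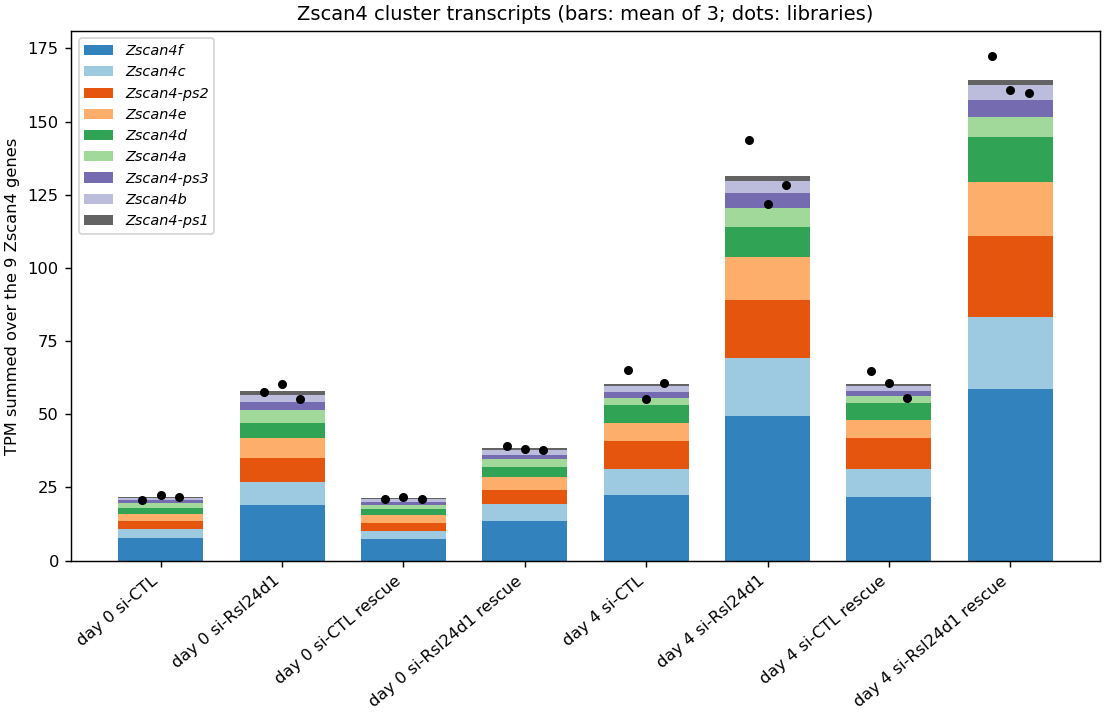
TPM summed over the 9 Zscan4 genes and pseudogenes (vertical axis) in the 8 groups, with bars for the mean of each gene and dots for the sum in each of 3 libraries. The sum was 21.7 in si-CTL and 57.8 in si-Rsl24d1 ESCs at day 0, and 60.2 and 131 at day 4.

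Gm4340 had the largest change and the widest spread of the 7, with 0.89, 1.74 and 1.93 in si-CTL and 3.11, 3.29 and 2.85 in si-Rsl24d1 ESCs. The change was 1.56 (95% interval 0.82 to 2.30, limma adjusted p = 0.0013). Without si-CTL replicate 1, the lowest library, it was 1.25 and no longer called (adjusted p = 0.012), leaving 3 members called. Of the 6 genes that hold all the words of Gm4340, 3 are in the table. Summed over these 4 genes, TPM were 24.0, 24.7 and 23.8 in si-CTL and 73.4, 80.6 and 75.2 in si-Rsl24d1 ESCs, 3.16 times as much and with little spread, most of it from Gm21293, while 1 of the 4, Gm21312, is listed at 0 in both groups. Gm4340 held between 3.35% and 16.5% of that sum in single libraries, so its own value varied more than the total.

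The remaining members differed by less than the fold threshold on the log2(TPM + 1) scale. Tcstv3 was at 1.09, 0.95 and 0.70 in si-CTL and 1.43, 1.67 and 1.82 in si-Rsl24d1 ESCs, a difference of 0.72 (limma adjusted p = 0.00062). Tmem92 was at 0.95, 1.11 and 0.73 against 1.70, 1.42 and 1.49, a difference of 0.61 (limma adjusted p = 3.6e-05). Zfp352 was at 0.25, 0.18 and 0.19 against 0.73, 0.72 and 0.72, a difference of 0.52 with no overlap. In TPM these are ratios of 2.38 for Tcstv3, 2.09 for Tmem92 and 4.22 for Zfp352, the last from 0.154 ± 0.030 to 0.650 ± 0.008. With 0.1 in place of 1 added to the TPM, all 7 members were called, among them Zfp352, whose call is no support. Of the 16447 tested genes, 921 were then called higher. Tcstv1 was at 0.10, 0.14 and 0.21 against 0.55, 0.20 and 0.48, all below 1 TPM and with overlapping groups.

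**Figure D3:**
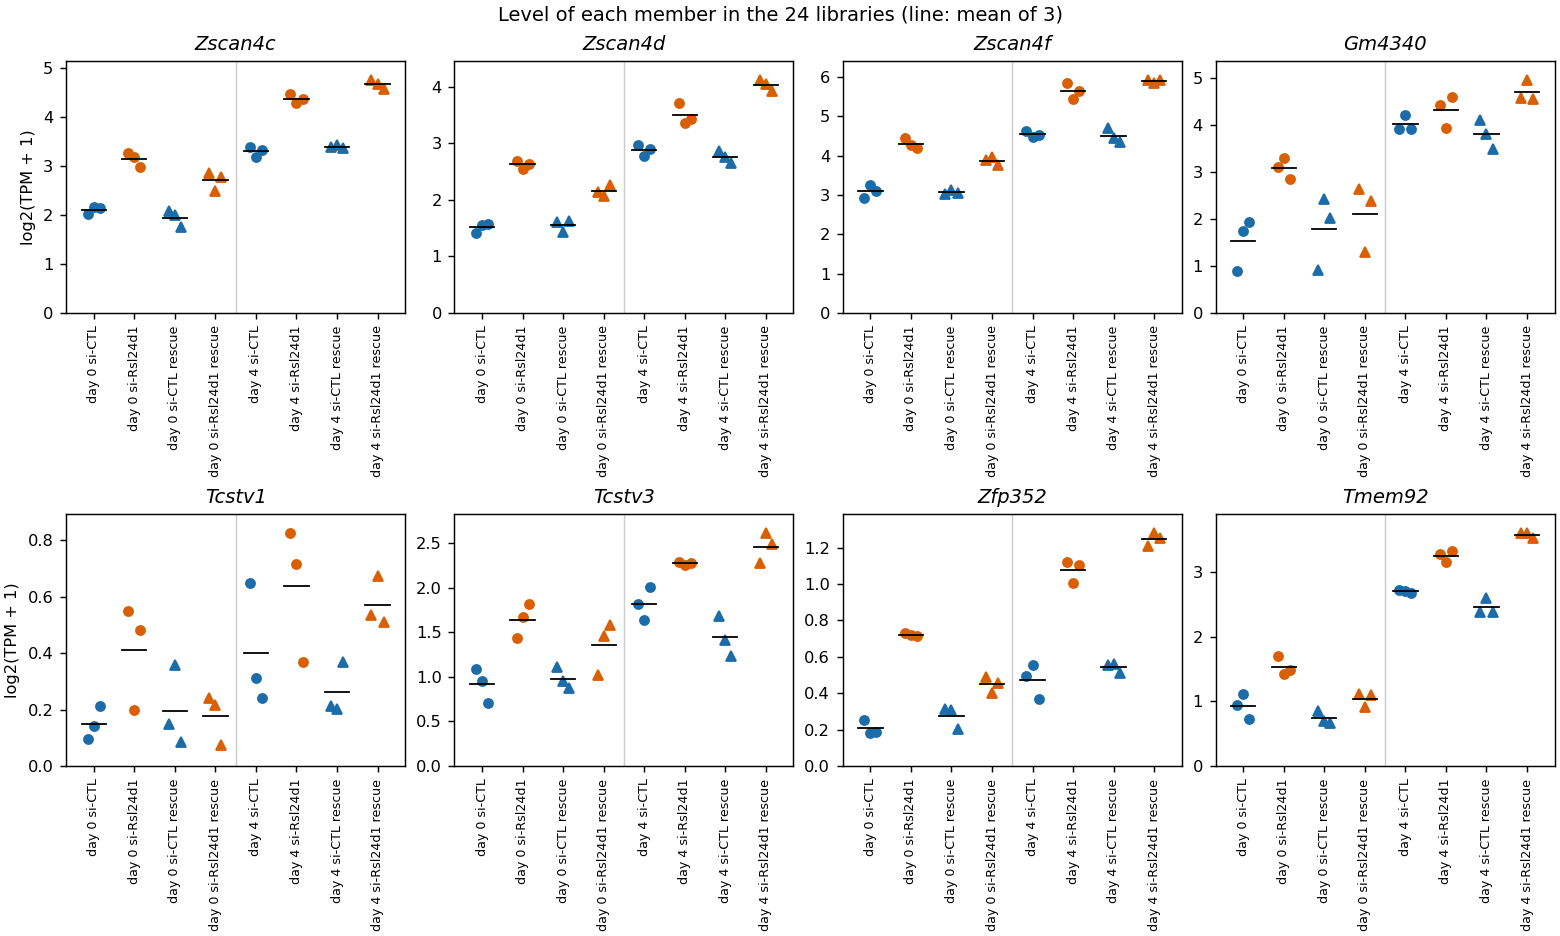
Level of each of the 8 members on the log2(TPM + 1) scale (vertical axes differ) in the 24 libraries, by group, with si-CTL in blue, si-Rsl24d1 in orange, circles without and triangles with rescue and a line at the mean of 3. At each day and rescue state the si-Rsl24d1 mean lies above the si-CTL mean, except for Tcstv1 with rescue at day 0 (0.18 against 0.20).

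Rescue at day 0 was used to ask which effects of the siRNA are lost when RSL24D1 is restored. In rescued ESCs, 0 of the 7 members were called between si-Rsl24d1 and si-CTL, where 1.17% of tested genes were called higher. By limma, 3 had an adjusted p below 0.01 with a change under the fold threshold (8.1% of tested genes were higher at that adjusted p), and 6, Zfp352 included, were higher at an unadjusted p below 0.05 (17.6% of tested genes). Zscan4f was at 3.02, 3.12 and 3.05 in rescued si-CTL and 3.88, 3.96 and 3.76 in rescued si-Rsl24d1 cells, a difference of 0.80 (limma adjusted p = 8.3e-06). Zscan4c differed by 0.77 (limma adjusted p = 1.1e-05) and Zscan4d by 0.60 (limma adjusted p = 6.1e-05), and for all 3 the groups did not overlap, as for 18% of tested genes in that direction. Leaving out rescued si-Rsl24d1 replicate 2 brought Zscan4c to 0.88 and replicate 3 brought Zscan4f to 0.86, each then called, so these values lie at the threshold.

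The difference between the groups with rescue was 73.5% of that without rescue for Zscan4c, 66.2% for Zscan4f, 54.0% for Zscan4d, 51.9% for Tcstv3, 50.4% for Tmem92, 33.8% for Zfp352 and 20.5% for Gm4340. The last is not a stable share, since the rescued difference of Gm4340 (0.32, limma adjusted p = 0.59) ran from -0.116 to 0.725 when single libraries were left out. For Rsl24d1 itself the difference with rescue was -0.50, against -1.95 without. The effect of the siRNA differed by rescue state by -0.51 for Zscan4d (limma adjusted p = 0.025) and -0.34 for Zfp352 (limma adjusted p = 0.023), and the adjusted p of the other 5 lay between 0.12 and 0.43. None of these differences was called (0.103% of tested genes were called lower), and 5, Zfp352 included, were lower at an unadjusted p below 0.05 by limma, as were 7.9% of tested genes. Summed over the 9 Zscan4 genes, TPM were 21.0, 21.7 and 21.0 in rescued si-CTL and 39.3, 38.0 and 37.7 in rescued si-Rsl24d1 cells, against 57.8 on average without rescue. For the 4 genes of the Gm4340 group the sums were 25.3 ± 1.1 and 48.0 ± 4.0 TPM (SD, n = 3), 1.90 times as much, whereas Gm4340 alone overlapped between the groups (0.91, 2.43 and 2.02 against 2.64, 1.30 and 2.38).

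Rescued and unrescued si-Rsl24d1 ESCs were also compared directly, a comparison that shares its unrescued libraries with the first. All 7 members were lower with rescue, with differences between -0.27 (Zfp352) and -0.98 (Gm4340) on the log2 scale, with a median of -0.45 (-0.46 without Zfp352) against -0.11 over all tested genes. None was called by limma (0.249% of tested genes were called lower), 5 had an adjusted p below 0.01 (12.2% of tested genes were lower at that adjusted p) and 6 an unadjusted p below 0.05 (34.2%). Zfp352 is in both counts. Groups were apart for 6 of the 7, against 33.6% of tested genes in that direction, the exception being Tcstv3. Between rescued and unrescued si-CTL ESCs no member and no other gene was called (0% of tested genes), no member had an unadjusted p below 0.05 by limma, and differences ran from -0.19 for Tmem92 to 0.27 for Gm4340. The median of all tested genes was itself shifted by -0.12 there, and with median of ratios scaling Zscan4f changed sign, from -0.03 to 0.10.

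**Figure D4:**
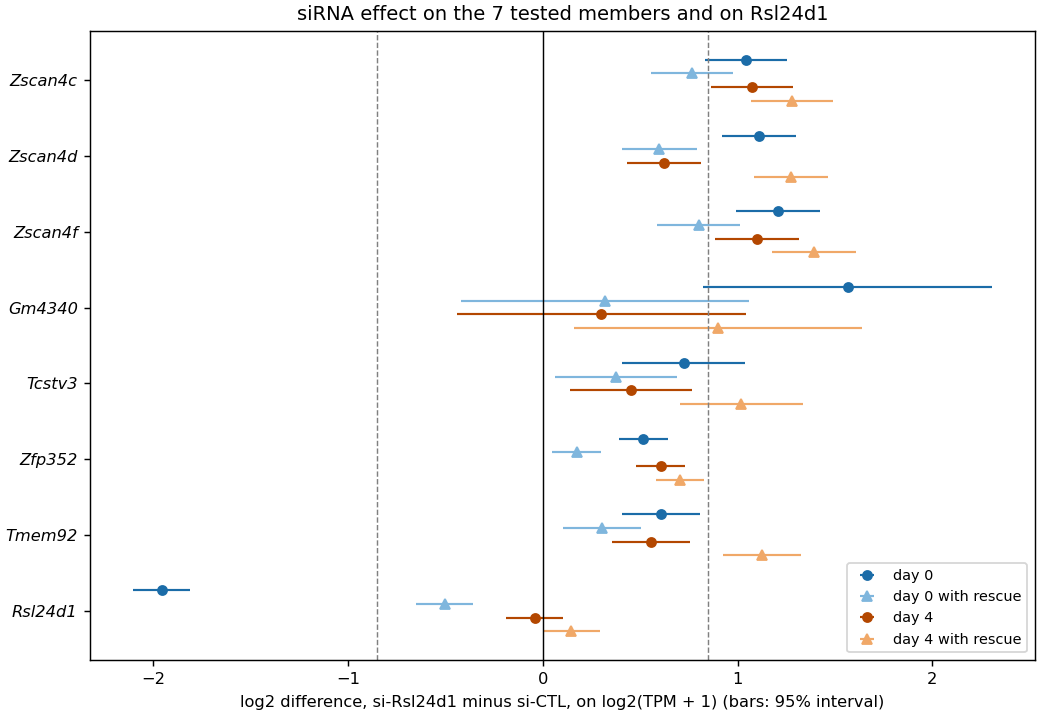
Difference between si-Rsl24d1 and si-CTL cells in log2(TPM + 1) (horizontal axis) for the 7 tested members and Rsl24d1, without (circles) and with rescue (triangles) at day 0 (blue) and day 4 (orange), with 95% intervals from limma and dashed lines at the fold threshold of 0.848. At day 4 the Zscan4 genes lie between 0.62 and 1.39, while Rsl24d1 lies at -0.04 and 0.15.

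At day 4 of RA treatment the members were higher in si-Rsl24d1 cells as well, although the Rsl24d1 difference was then -0.04. Without rescue, 2 of the 7 members were called higher and 0 lower, where 1.45% of tested genes were called higher. Zscan4f was at 4.63, 4.46 and 4.53 in si-CTL and 5.84, 5.44 and 5.64 in si-Rsl24d1 cells, a change of 1.10 (limma adjusted p = 1.9e-07), from 22.3 ± 1.4 to 49.2 ± 7.0 TPM (SD, n = 3). Zscan4c was at 3.40, 3.18 and 3.33 against 4.47, 4.29 and 4.37, a change of 1.07 (limma adjusted p = 1.9e-07). Of the others, Zscan4d (0.62) and Tmem92 (0.55) had an adjusted p below 0.01 under the fold threshold, where 24.9% of tested genes were higher at that adjusted p. Zfp352 differed by 0.61, Tcstv3 by 0.45 (limma adjusted p = 0.019) and Gm4340 by 0.30 (limma adjusted p = 0.51). The groups lay apart for 6 of the 7, Gm4340 excepted, beside 37.1% of all tested genes in that direction. The median of all tested genes was 0.13 higher in these si-Rsl24d1 libraries, and -0.0031 after median of ratios scaling, with which 2 members were again called and the median of the 7 was 0.47 in place of 0.61.

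With rescue at day 4, 5 of the 7 members were called higher and 0 lower, where 0.693% of tested genes were called higher, and groups lay apart for all 7, beside 10.8% of tested genes. Zscan4f was at 4.70, 4.46 and 4.34 in rescued si-CTL and 5.92, 5.84 and 5.93 in rescued si-Rsl24d1 cells, a change of 1.39 (limma adjusted p = 1.9e-08). Zscan4d was at 2.86, 2.76 and 2.65 against 4.12, 4.04 and 3.93, a change of 1.27 (limma adjusted p = 1.3e-08). Zscan4c changed by 1.28. These 3 changes are of the size seen at day 0 without rescue.

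Tmem92 was at 2.39, 2.60 and 2.39 in rescued si-CTL and 3.61, 3.61 and 3.53 in rescued si-Rsl24d1 cells, a change of 1.12 (limma adjusted p = 1.4e-07). Tcstv3 was at 1.68, 1.42 and 1.23 against 2.27, 2.61 and 2.49, a change of 1.02 (limma adjusted p = 0.00013), and lost its call with 2 in place of 1 added to the TPM (0.81). Zfp352 was at 0.56, 0.56 and 0.51 against 1.21, 1.28 and 1.25, a difference of 0.70, or 3.01 times in TPM. Gm4340 differed by 0.90 (95% interval 0.16 to 1.64, limma adjusted p = 0.11). Tcstv1 was at 0.21, 0.20 and 0.37 against 0.53, 0.67 and 0.51, the one siRNA comparison in which its groups did not overlap.

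Rescue thus went with opposite differences on the 2 days. At day 0 each of the 7 tested members had a smaller siRNA difference with rescue, and at day 4 each had a larger one, from 116% (Zfp352) to 224% (Tcstv3) of the difference without rescue for members other than Gm4340. For Gm4340 no share is given, because its difference without rescue (0.30) ran from 0.165 to 0.494 when single libraries were left out, while that with rescue ran from 0.747 to 1.05. In a comparison added after these values were seen, the difference between the siRNA effects with and without rescue at day 4 was 0.65 for Zscan4d (limma adjusted p = 0.003) and 0.57 for Tmem92 (limma adjusted p = 0.0071). No member was called there by limma (0.0973% of tested genes were called higher), 3 were higher at an unadjusted p below 0.05 (4.69% of tested genes), and the median of all tested genes was -0.17. Between rescued and unrescued si-Rsl24d1 cells at day 4, the 7 members were higher with rescue by 0.17 to 0.53 with 0 called by limma (0.0426% of tested genes were called higher). Of these 5, Zfp352 included, had an unadjusted p below 0.05 (4.37% of tested genes were higher at that p), and Zscan4d had an adjusted p of 0.00084. Between the si-CTL groups at day 4, 0 members were called by limma (0.0182% of tested genes were called lower) and 2, Tcstv3 and Tmem92, were lower with rescue at an unadjusted p below 0.05 (-0.38 and -0.25), as were 7.16% of tested genes.

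Without rescue, the siRNA difference was smaller at day 4 than at day 0 for Zscan4d (-0.49, limma adjusted p = 0.0047) and for Gm4340 (-1.26, limma adjusted p = 0.047). No member was called in this interaction by limma (2.71% of tested genes were called lower), and these 2 were the members with an unadjusted p below 0.05 (14.8% of tested genes were lower at that p). The median of all tested genes was 0.14 there. For Zscan4c the effects were 1.04 at day 0 and 1.07 at day 4 (difference 0.03, 95% interval -0.27 to 0.33), and the sign of this difference turned with median of ratios scaling (-0.10). Summed over the Zscan4 cluster, si-Rsl24d1 cells had 2.18 times the TPM of si-CTL cells at day 4 without rescue (122 to 144 against 55.0 to 65.0) and 2.72 times with rescue (160 to 172 against 55.6 to 64.8). The sums over the 4 genes of the Gm4340 group were 112 TPM in si-CTL and 172 TPM in si-Rsl24d1 cells without rescue, a ratio of 1.54, and 95.6 TPM in si-CTL and 247 to 270 TPM in si-Rsl24d1 cells with rescue, a ratio of 2.68.

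The members were higher at day 4 than at day 0 in each siRNA and rescue state. RA, the time in culture and, by the methods of the study, the removal of LIF all differ between the days and cannot be told apart. In si-CTL cells without rescue, 6 of the 7 members were called higher at day 4 than at day 0, where 6.77% of tested genes were called higher. Gm4340 rose most, by 2.49 (standard error 0.35, limma adjusted p = 3.5e-06), from 2.00 ± 1.02 to 15.2 ± 2.0 TPM, and the sum over its group of 4 genes rose 4.63-fold. Tmem92 rose by 1.78 (standard error 0.10, limma adjusted p = 3.6e-12), from 0.92 ± 0.25 to 5.52 ± 0.13 TPM (SD, n = 3). Zscan4f rose by 1.44, Zscan4d by 1.36, Zscan4c by 1.19 and Tcstv3 by 0.90, and the sum over the Zscan4 cluster rose 2.78-fold. Tcstv3 lost its call when si-CTL replicate 3 of either day was left out, with 0.80 without the day 0 library and 0.81 without the day 4 library, and with 2 added to the TPM (0.65). Zfp352 differed by 0.27, under the fold threshold.

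The same comparison gave 5 members called in si-Rsl24d1 cells (7.93% of tested genes were called higher), 5 in rescued si-CTL cells (10.7%) and 6 in rescued si-Rsl24d1 cells (9.34%). In unrescued si-Rsl24d1 cells the calls of Zscan4d (0.87) and Gm4340 (1.23) were both lost without day 4 replicate 1, which left 3. Zscan4d also lost its call without day 0 replicate 2 (0.84), and Gm4340 without replicate 1 or 3 of day 0 or replicate 3 of day 4 (adjusted p between 0.013 and 0.024). On the log2 scale the rise was largest in rescued si-Rsl24d1 cells, with 2.54 for Tmem92, 2.59 for Gm4340, 2.03 for Zscan4f, 1.97 for Zscan4c and 1.88 for Zscan4d. For Gm4340 it was close to the 2.49 of unrescued si-CTL cells, where its TPM ratio was higher (7.61 against 6.93). The rises with rescue were not compared with the others by a test. Zfp352 was not called in any of the 4, with differences of 0.27 to 0.80. The median of all tested genes shifted by -0.10 between the days in si-CTL cells and by 0.12 in rescued si-CTL cells, and the counts of members called were 6 and 5 after median of ratios scaling as well. Each of these day comparisons shares its libraries with the siRNA comparisons above.

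Ordered by their means on the log2(TPM + 1) scale, the groups fell into nearly the same sequence for the 3 Zscan4 genes. Rescued and unrescued si-Rsl24d1 cells at day 4 were highest, followed by the 2 si-CTL groups at day 4, unrescued and then rescued si-Rsl24d1 ESCs, and the 2 si-CTL groups of day 0. The si-CTL groups of one day overlapped with each other for all 3 genes, and the lower si-CTL group of day 4 overlapped with unrescued si-Rsl24d1 ESCs. The 2 highest groups overlapped for Zscan4f and were apart for Zscan4c and Zscan4d. Zfp352 had another order, with unrescued si-Rsl24d1 ESCs (0.72 ± 0.01) above both si-CTL groups of day 4 (0.54 ± 0.03 and 0.47 ± 0.10), and no overlap between them. Tmem92 separated by day, with the means of all 4 groups of day 4 (2.46 to 3.58) above those of day 0 (0.74 to 1.54) and no overlap of libraries. For Tcstv1 every pair of neighbours in the order overlapped.

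Across the 24 libraries, the genes outside the cluster whose levels followed the mean of Zscan4c, Zscan4d and Zscan4f most closely were Gm47739 (Pearson r = 0.992), Gm48764 and Gm48829 (0.989 each), Gm5662 (0.989), Gm21293 (0.988) and Gm48799 (0.988). These libraries fall into 8 groups that share their treatment, so that r mainly reflects the group means. Within groups it lay between 0.04 (Gm48829) and 0.67 (Gm21293). Gm48764, Gm48829 and Gm48799 are annotated as lincRNA and Gm47739 as sense intronic, while Gm5662 and Gm21293 are protein coding, and Gm21293 is one of the genes that hold all the words of Gm4340. Gm48764 was called higher in si-Rsl24d1 cells by 1.55 at day 0 and 0.96 at day 4 without rescue and by 1.52 at day 4 with rescue. Among the members, r was 0.952 for Tmem92, 0.939 for Zfp352, 0.933 for Tcstv3 and 0.909 for Gm4340.

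A list of 49 other 2-cell stage genes was read in the same way, of which 46 are in the table and 32 were tested. Of the 32, 4 have a mean under 0.5 over the si-CTL libraries and passed only through the si-Rsl24d1 libraries, and none of these 4 is among the siRNA calls given here. At day 0 without rescue 11 of the 32 were called higher and 0 lower (3.4% of all tested genes were called higher), with a median of 0.65, or 0.71 without the 4. The largest changes were those of Ddit4l (2.41), an inhibitor of mTOR signalling, Gm6763 (1.75), Gm21293 (2.93 times in TPM) and Gm5662 (1.33), of which Gm6763 and Gm21293 hold all the words of Gm4340. With rescue at day 0, 2 were called higher, Ddit4l (1.47) and Gm21293 (0.97), where 1.17% of tested genes were, and the median was 0.39. At day 4, 5 were called higher without rescue (1.45% of tested genes), with a median of 0.35 beside 0.13 for all tested genes, and 2 after median of ratios scaling. With rescue at day 4, 14 were called higher (0.693% of tested genes) and all 32 had differences above 0, with a median of 0.69, led by Gm21293 (1.48), Gm20767 (1.47), Gm5039 (1.46) and Gm6763 (1.43). From day 0 to day 4, 22 were called higher in si-CTL cells (6.77% of tested genes), 17 in unrescued si-Rsl24d1 cells (7.93%), 22 in rescued si-CTL cells (10.7%) and 26 in rescued si-Rsl24d1 cells (9.34%). Genes of the list with a mean under 0.5 over the day 0 libraries were not set aside in these counts. Such genes passed the filter only through day 4, and their calls are no support for a rise. In the day comparisons Ddit4l was the one gene of the list called lower, in unrescued si-Rsl24d1 cells, where it fell by 1.65 from day 0 to day 4 (6.22% of tested genes were called lower).

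**Figure D5:**
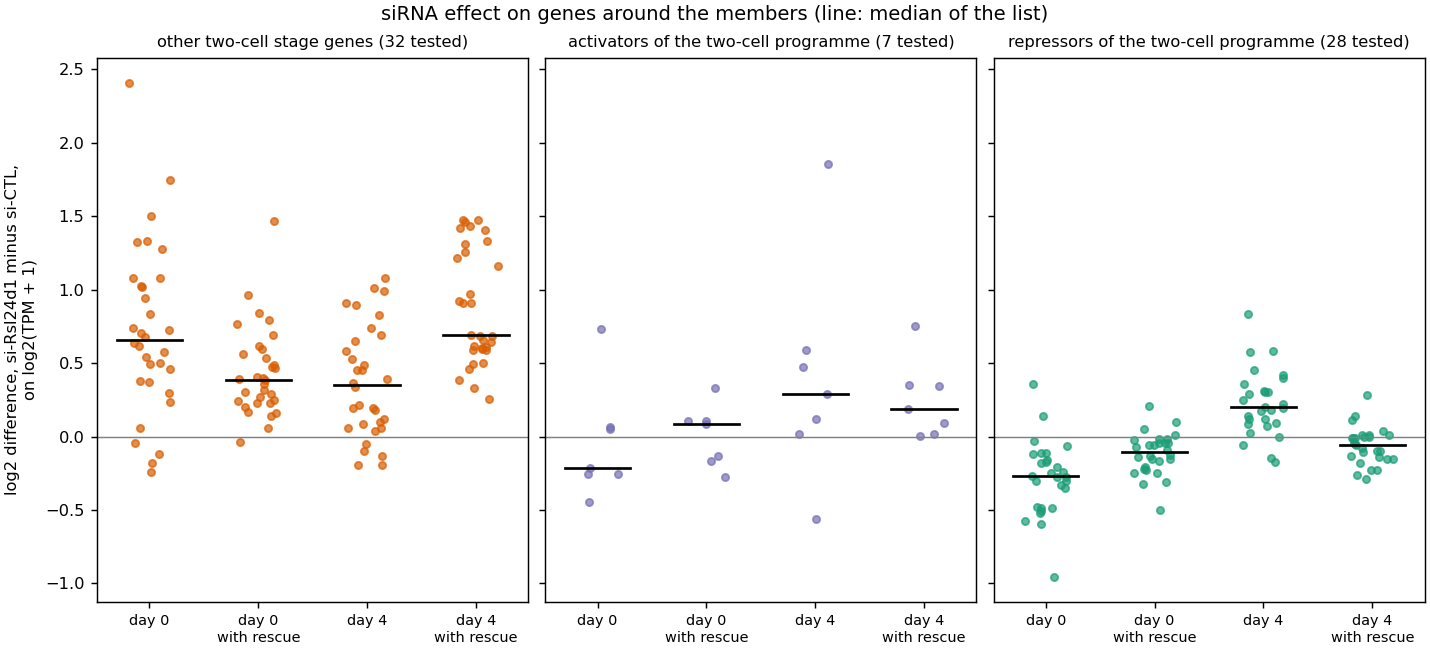
Difference between si-Rsl24d1 and si-CTL cells in log2(TPM + 1) (vertical axis) for each tested gene of 3 lists, in the 4 siRNA comparisons, with a line at the median of the list. From day 0 without rescue to day 4 with rescue, the medians are 0.65, 0.39, 0.35 and 0.69 for the other 2-cell stage genes, -0.22, 0.09, 0.29 and 0.19 for the activators, and -0.27, -0.11, 0.20 and -0.06 for the repressors.

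Known regulators of the programme mostly stayed under the thresholds. Of 28 repressors, all tested, 1 was called at day 0, where 0.772% of tested genes were called lower. It was Zfp42, which encodes REX1 and is also an ESC marker (-0.96, limma adjusted p = 4e-12). The median of the list was -0.27, and 15 of the 28 were lower and 2 higher at an adjusted p below 0.01 without regard to fold, as were 16.1% and 14.3% of tested genes. In the other 3 siRNA comparisons none was called by limma, with an unadjusted p below 0.05 for 10 lower and 1 higher with rescue at day 0 (15.2% and 17.6% of tested genes), 2 lower and 19 higher at day 4 (11.6% and 41.6%) and 6 lower and 1 higher with rescue at day 4 (17.2% and 8.29%). At day 4 their median of 0.20 was close to the 0.13 of all tested genes and was 0.03 after scaling. From day 0 to day 4 in si-CTL cells, 9 were called lower (8.24% of tested genes were), among them L3mbtl2 (-1.51), Tet1, Tet2 (-1.33) and Uhrf1 (-1.12). In the other day comparisons 0 were called lower in unrescued si-Rsl24d1 cells by limma (6.22% of tested genes, with 14 of the 28 lower at an unadjusted p below 0.05), 1 in rescued si-Rsl24d1 cells (5.57%) and 1 in rescued si-CTL cells (4.82%), L3mbtl2 in both (-0.97 and -1.23). The part of the repressors in the rise of the members between the days was not tested. Of 10 activators, 7 were tested and 1 was called in an siRNA comparison, the transcription factor gene Gata2 at day 4 without rescue (1.85, limma adjusted p = 5e-05). In that comparison 1.45% of all tested genes were called higher. From day 0 to day 4 in si-CTL cells the median of the activators was -0.58, as that of the repressors was. Of the 7 activators, 2 were called lower there, Dppa2 and Trp53, and 1 higher, Dppa3 (2.05), beside 8.24% and 6.77% of tested genes.

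ESC markers were expressed in all 24 libraries, with 10 genes summing to between 4979 and 7432 TPM. This sum hides changes of single genes. From day 0 to day 4 in si-CTL cells 8 of the 10 were lower, with a median of -0.72. There 3 were called lower and 1 higher (8.24% and 6.77% of tested genes). The median was -0.12 in unrescued si-Rsl24d1, -0.29 in rescued si-Rsl24d1 and -0.46 in rescued si-CTL cells. At day 0 without rescue 2 of the 10 ESC markers, Esrrb (-1.09) and Zfp42 (-0.96), were called lower in si-Rsl24d1 cells, where 0.772% of tested genes were. Over 7 primitive endoderm markers, the sum was 4.65 to 6.20 TPM in si-CTL and 5.35 to 8.09 in si-Rsl24d1 ESCs, with 0 of 5 tested genes called (3.4% of all tested genes were called higher and 0.772% lower). At day 4 the sum was 15.2 to 19.8 and 30.4 to 38.3, with 2 of 5 called higher (Gata6, 0.99, and Dab2, 0.87), where 1.45% of tested genes were, and 1 of 5 after median of ratios scaling. Of these 5 genes, 1 has a mean under 0.5 over the si-CTL libraries and passed the filter only through the si-Rsl24d1 libraries. It is not among the 2 called. Over 7 trophoblast markers the sums were 326 to 338 and 379 to 400 TPM at day 0, and 389 to 421 and 512 to 606 at day 4, with 0 and 1 of 6 called higher (Hand1 at day 4, 1.13), where 3.4% and 1.45% of tested genes were. No gene of these marker lists was at 0 in all libraries of a group. The part of these differences in those of the 8 genes was not tested.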

How the data were processed

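RNA-seq was read in 24 libraries, 3 in each of 8 groups defined by day, siRNA and rescue in the sample titles. The deposited table holds log2(TPM + 1) per gene. According to the study's methods, the authors quantified transcripts with Salmon on a GRCm38 protein-coding index, and the submitters' processing notes name STAR 2.7.8a, Salmon 1.4.0 and GRCh38. The deposited values also cover genes annotated as lincRNA, sense intronic or pseudogene (such as Gm48764, Gm47739 and Zscan4a), so an index of protein-coding genes alone does not describe them. Each library sums to 1000000 TPM, so depth is unknown and no counting interval was given. Such a quantifier divides reads shared by near-identical copies by a model. No batch is given in the labels, and no 2 libraries were identical (r between 0.941 and 0.991).

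The deposited log2 values were fitted as such with limma 3.58.1 (R 4.3.3), with 8 group means, an intensity trend and Benjamini-Hochberg adjustment within each comparison, two-sided. The study used another test on counts, which are not used here. Ratios of TPM were computed after undoing the log2 transformation with its pseudocount of 1. The filter was a mean of at least 0.5 (16447 genes), and the thresholds were an adjusted p of 0.01 and a 1.8-fold change. The step was tested on simulated data. Nothing in the labels says whether replicates are separate cultures. The study calls them biological replicates in the legend of its gene signature plots, but does not say there how they were obtained. The p-values measure the spread between these libraries.

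The members and lists were chosen with earlier results of these data known. Named genes are the 8 members, Rsl24d1, the other Zscan4 genes, at most 4 called genes of each other list per comparison with the largest change, and the 6 genes outside the family most like the mean of Zscan4c, Zscan4d and Zscan4f. Genes named outside this rule (Gm21312 and Duxf3, and Dppa3, Ddit4l and Gata2 where they were not called) were chosen after their values were seen. Shared words were counted in gencode vM21 transcripts, and promoter windows are those of RefSeq. Alternatives were pseudocounts of 0.1 and 2, no filter or a mean of 1.5, median of ratios scaling, a replicate block, only the groups compared, other thresholds and leaving out each library. The interaction of siRNA and rescue at day 4 was added after seeing the data.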

Additional observations from a re-analysis of the deposited data

Results flagged for a closer look

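The effect of the siRNA differed by day or by rescue state for 4 members, Zfp352 included, each by a limma interaction term with an adjusted p below 0.05. Such terms were not particular to the members. At an adjusted p below 0.01 by limma, without regard to fold, 1452 of the 16447 tested genes were lower in the siRNA and day term, with 1 member. In the siRNA and rescue terms 194 genes and 0 members were lower at day 0, and 115 genes and 2 members were higher at day 4. Zfp352 passed the filter only through the groups where it is high, so its term is no support for a difference. None of these interaction differences was called, since that of Gm4340 exceeded the fold threshold with an adjusted p of 0.047 and the others lay under the fold threshold. Without rescue, the difference between si-Rsl24d1 and si-CTL cells was smaller at day 4 than at day 0 for Zscan4d (-0.49 on the log2 scale, 95% interval -0.76 to -0.22) and for Gm4340 (-1.26, 95% interval -2.31 to -0.22). At day 0 it was smaller with than without rescue for Zscan4d (-0.51, 95% interval -0.78 to -0.24) and for Zfp352 (-0.34, 95% interval -0.52 to -0.16). At day 4 it was larger with rescue for Zscan4d (0.65, 95% interval 0.38 to 0.92) and for Tmem92 (0.57, 95% interval 0.29 to 0.85), in a comparison added after seeing the data. Zscan4d is in all 3 of these comparisons, and 65.0% of its 31-base words occur in other genes. No group had 4 or more libraries, so single libraries were not tested for standing apart.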

How the results depend on the processing

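Of 33 member changes called across the 15 comparisons, 0 reversed under 495 alternatives and 14 fell below a threshold. Many of the 495 could not reverse a change. The other filters and thresholds, the replicate block and the fit of only the groups compared leave the differences of group means as they are. Only the pseudocounts, the scaling and leaving out libraries can alter them. Of 243 alternative counts of members called, 229 stayed within 1.5 times the reported count. With 0.1 added to the TPM, 7 members were called at day 0 (4 reported) and 2 at day 0 with rescue (0 reported). Without a fold threshold, which removes a criterion, 7 were called at day 0, 3 at day 0 with rescue, 5 at day 4 without rescue, 5 and 1 between rescued and unrescued si-Rsl24d1 cells at day 0 and day 4, 1 in the interaction of siRNA and day and 2 in that of siRNA and rescue at day 4. Zfp352, whose tests are no support, is in each of these counts of 7 and of 5. At an adjusted p below 0.05, 1 (Gm4340) was called between the si-Rsl24d1 groups of day 0 and 1 in the interaction of siRNA and day.

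Leaving out single libraries gave 3 to 4 members at day 0 (3 without si-CTL replicate 1), 0 to 1 at day 0 with rescue, and 3 to 5 between the days in unrescued si-Rsl24d1 cells (3 without day 4 replicate 1). Differences that reversed were all uncalled. With median of ratios scaling these were Zscan4f between the si-CTL groups of day 0 (0.102), Zscan4c between those of day 4 (-0.027) and Zscan4c in the interaction of siRNA and day (-0.105). In that interaction 0.1 added gave -0.077 for Zscan4c and -0.242 for Zfp352, and 2 added gave 0.067 for Tmem92. Leaving out single libraries gave -0.116 to 0.725 for Gm4340 at day 0 with rescue. Between the si-CTL groups of day 0 it gave -0.013 to 0.099 for Zscan4d, -0.114 to 0.050 for Zscan4f, -0.055 to 0.705 for Gm4340 and -0.042 to 0.152 for Tcstv3. Between those of day 4 it gave -0.142 to 0.039 for Zscan4f, and in the interaction of siRNA and day -0.051 to 0.093 for Zscan4c and -0.143 to 0.045 for Tmem92. The cause was not tested.

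Counts over all genes moved more. At day 0, 687 were called as reported, 1224 with 0.1 added and 5008 without a fold threshold, and at day 4 without rescue 268, 601 and 5087, with 167 after scaling and 158 with 2 added. At day 4 with rescue, 120 were called as reported and 965 without a fold threshold.

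Same-numbered libraries did not deviate together (mean r -0.0173 over 84 pairs, against 0.00865 over 168 others), and 1 of 24 libraries correlated best with its own number. The replicate block changed none of the 15 counts of members called (4 at day 0 with the block). Without counts, the error of weakly expressed genes such as Tcstv1 and Zfp352 cannot be computed from depth.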

Other observations

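Duxf3, a copy of the Dux gene that acts upstream of the 2-cell programme, was below the filter and was not tested. Its log2(TPM + 1) was 0.04, 0.14 and 0.28 in si-CTL and 0.16, 0.37 and 0.43 in si-Rsl24d1 ESCs, where the groups overlap. At day 4 it was 0.23, 0.43 and 0.48 against 0.78, 0.80 and 0.76 without rescue, and 0.26, 0.45 and 0.32 against 0.73, 0.60 and 0.72 with rescue, with no overlap in either. All these levels are below 1 TPM.

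Dppa3, a maternal factor gene counted here among the activators, rose from day 0 to day 4 in si-CTL cells by 2.05 (limma adjusted p = 9.1e-16) and was lower in si-Rsl24d1 than in si-CTL cells without rescue, with differences of -0.44 at day 0 and -0.56 at day 4, under the fold threshold. With rescue at day 4 it was at 8.30, 8.28 and 8.31 against 8.30, 8.27 and 8.32.

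Ddit4l was at 3.24, 2.95 and 3.12 in si-CTL and between 5.45 and 5.59 in si-Rsl24d1 ESCs. At day 4 it was at 4.07, 4.07 and 3.73 against 3.98, 3.84 and 3.76, where the groups overlap, and the siRNA effect differed between the days by -2.50 (limma adjusted p = 4.5e-11).

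Gata2 was at 1.85, 1.18 and 1.30 in si-CTL and 3.19, 3.53 and 3.16 in si-Rsl24d1 cells at day 4 without rescue. With rescue it was at 1.19, 2.29 and 2.04 against 3.01, 2.13 and 2.65, where the groups overlap.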
